A study of Mus musculus with 16 samples.

Results

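The enzymes that turn squalene into cholesterol were followed in mouse liver as a set of 9 genes, Sqle, Lss, Cyp51, Msmo1, Nsdhl, Hsd17b7, Ebp, Sc5d and Dhcr7, out of 78317 genes listed in the deposited table. The set was chosen by pathway membership, with earlier results of these data known, and all 9 genes were among the 14781 that passed the filter on low counts and were tested. The genes lie on chromosomes 15 (Sqle), 10 (Lss), 5 (Cyp51), 8 (Msmo1), X (Nsdhl and Ebp), 1 (Hsd17b7), 9 (Sc5d) and 7 (Dhcr7). Liver RNA came from C57BL/6J mice bought from the Jackson Laboratory, with the genotype given as wt in every group, so no group carried an engineered allele. Females and males arrived at 6 weeks of age and were then fed for 10 weeks either a normal chow, with 4.5% of its calories from fat, or a high fat diet, with 60% from fat. The 4 groups were female normal diet, female high fat diet, male normal diet and male high fat diet, with 4 libraries each and 16 in all. The diets came from different makers, so the fat content and the other ingredients cannot be told apart.

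Cholesterol is made from acetyl-CoA in a long chain of reactions, most of them on the endoplasmic reticulum, and the liver is among its main producers. The mevalonate arm ends in squalene, which Sqle (squalene epoxidase) oxidizes and Lss (lanosterol synthase) folds into lanosterol, the earliest sterol of the chain. Cyp51, Msmo1, Nsdhl and Hsd17b7 then take methyl groups off the ring system, Ebp shifts a double bond, Sc5d adds another, and Dhcr7 reduces the ring on the way to cholesterol. Most genes of the chain are known targets of SREBP2, a membrane-bound transcription factor that is cleaved and moves to the nucleus when cellular sterol is low. Sqle is known as a rate-limiting step of the chain.

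RefSeq promoter windows (GRCm38.p6, from 250 bases before to 50 bases after the annotated start) were held for 8 of the 9 enzymes, 10 windows in all since Dhcr7 had 3, and Sqle had none. They are shown because the genes of the set are known to share a sterol-responsive control. Printed are 3 enzymes whose level fell in females (Cyp51, Hsd17b7 and Msmo1), beside Ebp and Sc5d, whose change was smallest. These 5 were picked with their changes known, but not by size of change alone. Lss, Nsdhl and Dhcr7, which also fell in females, are not printed, and Nsdhl fell more (log2 change -1.68) than Hsd17b7 (-1.40). Of the 8 enzymes only Cyp51 and Hsd17b7 hold the 8-base element marked below, and both are printed, so the printed windows show it more often than the set does. The 250 bases before the start are printed, 5′ to 3′ on the strand of the gene. Capitals mark TCACCNCA, an 8-base form of the sterol regulatory element, and CCAAT, the NF-Y box, on either strand (ATTGG is CCAAT read from the other strand). All 5 genes lie on the minus strand, with Cyp51 at chr5:4104698-4104947, Hsd17b7 at chr1:169969206-169969455, Msmo1 at chr8:64733579-64733828, Ebp at chrX:8193513-8193762 and Sc5d at chr9:42264301-42264550.
Cyp51: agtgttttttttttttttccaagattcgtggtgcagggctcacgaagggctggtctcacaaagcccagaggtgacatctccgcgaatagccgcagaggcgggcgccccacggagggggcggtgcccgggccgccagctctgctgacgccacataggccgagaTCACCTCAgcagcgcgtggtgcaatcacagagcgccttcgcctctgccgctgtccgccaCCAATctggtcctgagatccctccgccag
Hsd17b7: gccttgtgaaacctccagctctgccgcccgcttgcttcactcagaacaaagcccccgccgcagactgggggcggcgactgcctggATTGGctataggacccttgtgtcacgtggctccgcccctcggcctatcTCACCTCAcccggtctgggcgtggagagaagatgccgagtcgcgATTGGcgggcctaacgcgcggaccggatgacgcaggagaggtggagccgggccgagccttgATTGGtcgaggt
Msmo1: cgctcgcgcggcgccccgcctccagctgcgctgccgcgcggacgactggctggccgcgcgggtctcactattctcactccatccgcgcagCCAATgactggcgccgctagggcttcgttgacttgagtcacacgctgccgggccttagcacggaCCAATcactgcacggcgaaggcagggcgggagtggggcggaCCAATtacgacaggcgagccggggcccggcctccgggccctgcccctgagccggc
Ebp: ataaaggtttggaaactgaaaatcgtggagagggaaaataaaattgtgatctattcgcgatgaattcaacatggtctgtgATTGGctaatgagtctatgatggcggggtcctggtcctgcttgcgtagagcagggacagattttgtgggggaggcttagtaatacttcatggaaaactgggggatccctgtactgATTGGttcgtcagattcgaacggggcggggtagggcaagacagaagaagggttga
Sc5d: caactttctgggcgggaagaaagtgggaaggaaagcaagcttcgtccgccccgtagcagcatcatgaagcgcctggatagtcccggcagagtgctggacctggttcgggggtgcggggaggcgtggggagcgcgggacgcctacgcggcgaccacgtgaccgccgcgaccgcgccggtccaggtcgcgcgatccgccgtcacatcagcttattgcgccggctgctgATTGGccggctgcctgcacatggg

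The classical element TCACNCCAC was found on neither strand of any of the members' windows, while 1.24% of all 32851 windows of 300 bases hold it. The looser TCACCNCA stood in 2 of the 8 enzymes' windows, at base -88 from the start in Cyp51 and at -117 in Hsd17b7, and 4.42% of all windows hold it. That form was chosen after the windows had been read. Lss, Msmo1, Nsdhl and Dhcr7, which also fell in females, held neither form, and neither did Ebp and Sc5d. CCAAT was present in 8 of the 10 windows, against 37.4% of all windows, and each of the 8 enzymes had it in at least 1 window. Nsdhl had 4 copies, Msmo1 and Hsd17b7 had 3 each, and of the 3 windows of Dhcr7 only 1 held it. Ebp and Sc5d had it too, with 2 copies and 1 copy. GGGCGG, the box read by Sp1, was present in 9 of the 10 windows, against 35.7% of all windows. All motifs were searched on both strands, and the matches of different motifs overlapped in 0 cases in these windows. A match of letters is a description of the sequence and no evidence of binding.

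The libraries held between 22228115 and 41420589 expected counts, and the sex-specific marker genes matched the label in 16 of 16. Hepatocyte markers were detected in every library, and albumin alone took 8.71% ± 0.331 (SD, n = 4) of the counts in the female normal diet group and 4.87% ± 1.16 (SD, n = 4) in the male high fat diet group. Nothing in the labels says that the libraries of a group came from separate mice, so the p-values measure the spread between these samples, which may be partly technical. Male high fat diet replicates 2 and 3 were the most alike pair and still differed by more than counting noise, with a chi-square of 4.07 per gene against 20.9 for the next closest pair. Female high fat diet replicate 3 was the highest library of its group for 8 of the 9 enzymes, and female normal diet replicate 2 was the lowest of its group for 6. In whole liver, fewer cells of a type and less RNA per cell cannot be told apart.

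Most steps between squalene and cholesterol were lower on the high fat diet in both sexes. In females 7 of the 9 enzymes fell (Sqle, Lss, Cyp51, Msmo1, Nsdhl, Hsd17b7 and Dhcr7) and none rose, where 5.76% of all tested genes fell, 5.74% rose and 11.5% changed in either direction. In males 5 fell (Sqle, Lss, Cyp51, Msmo1 and Dhcr7) and none rose, where 5.36% of tested genes fell, 6.03% rose and 11.4% changed in either direction. The median change of the 9 enzymes was -1.40 on the log2 scale in females and -0.90 in males, while the median over all tested genes was 0.0019 in females and 0.01 in males. A change was called at an adjusted p under 0.05 in edgeR's quasi-likelihood test, with Benjamini-Hochberg adjustment over all tested genes. Levels below are CPM, counts scaled to a common library size by edgeR's TMM method.

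Sqle, the epoxidase that commits squalene to sterols, had the largest estimated fall of the set in both sexes. In females it measured 89.5, 53.9, 98.6 and 106 CPM on normal diet and 9.0, 14.9, 31.0 and 13.7 CPM on high fat diet. In males the normal diet libraries stood at 48.5, 45.0, 68.7 and 60.2 CPM and the high fat diet libraries at 34.3, 10.8, 11.5 and 18.9 CPM. Every high fat diet library lay under every normal diet library of its sex, with female replicate 3 and male replicate 1 the highest of the high fat diet groups. The female level was 5.09-fold lower, a change of -2.35 ± 0.42 (log2, SE) with an edgeR adjusted p of 0.004. The male level was 2.95-fold lower, at -1.56 ± 0.41 (log2, SE) and an edgeR adjusted p of 0.0277. The male call of Sqle turned on single libraries: the adjusted p rose to 0.0707 without male normal diet replicate 3, 0.0592 without replicate 4, and 0.0767, 0.0764 and 0.0684 without male high fat diet replicates 2, 3 and 4.

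Lss, which closes the sterol rings, was the least abundant enzyme of the set per transcript length. Its female libraries read 32.6, 23.0, 46.8 and 37.7 CPM on normal diet against 14.9, 12.5, 19.8 and 12.8 CPM on high fat diet. Its male libraries read 22.5, 20.2, 29.4 and 27.4 CPM against 12.7, 14.1, 13.3 and 13 CPM. In CPM the groups did not overlap in either sex, and the 4 male high fat diet libraries were nearly level. Lss fell 2.33-fold in females (log2 change -1.22 ± 0.19 SE, edgeR adjusted p = 0.000549) and 1.87-fold in males (-0.90 ± 0.19, edgeR adjusted p = 0.0051). An annotated antisense gene, 4930483K19Rik, overlaps 381 exonic bases of Lss, and the counting is not stated to use strand, so a part of these counts may belong to it. The expected counts of Lss were whole numbers in every library, so no split of reads between genes showed in them.

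Cyp51, the cytochrome P450 that removes the earliest methyl group from lanosterol and the partner of Por, fell in both sexes. On normal diet the female libraries held 322, 165, 323 and 313 CPM, and on high fat diet 49.5, 68.6, 118 and 47.3 CPM. The male libraries held 201, 133, 194 and 226 CPM on normal diet and 82.9, 72.8, 72.5 and 67.9 CPM on high fat diet. Female normal diet replicate 2 stood well under its 3 companions, yet still above the highest high fat diet library. Cyp51 fell 3.97-fold in females (-1.99 ± 0.28, edgeR adjusted p = 0.000392) and 2.55-fold in males (-1.35 ± 0.27, edgeR adjusted p = 0.00519). Without female normal diet replicate 2 the female change of Cyp51 was -2.16, and without female high fat diet replicate 3 it was -2.34. Exons of Akap9 on the opposite strand overlap 166 bases of Cyp51, with the same uncertainty as for Lss. The expected counts of Cyp51 departed from whole numbers in 4 libraries, by 0.07 at most.

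Msmo1, Nsdhl and Hsd17b7 act in turn on the remaining methyl groups. Msmo1, the oxygenase of this group, measured 379, 260.0, 360.3 and 370.3 CPM in females on normal diet and 78.4, 93.2, 157 and 85.7 CPM on high fat diet. In males it measured 277, 169.8, 199 and 215 CPM on normal diet and 111, 89.2, 92.3 and 75.9 CPM on high fat diet. No high fat diet library reached the lowest normal diet library of its sex. The fall was 3.31-fold in females (-1.73 ± 0.21, edgeR adjusted p = 8.18e-05) and 2.33-fold in males (-1.22 ± 0.21, edgeR adjusted p = 0.00114), which makes Msmo1 the enzyme with the smallest adjusted p of the set in males.

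Nsdhl, the X-linked dehydrogenase that removes the oxidized methyl group, stood at 105, 45.8, 105 and 91.7 CPM in females on normal diet and at 14.2, 24.2, 44.6 and 26.0 CPM on high fat diet. The female groups came close, at 45.8 CPM in normal diet replicate 2 and 44.6 CPM in high fat diet replicate 3, without overlapping. The male values were 70.5, 37.1, 61.1 and 62.2 CPM on normal diet and 18.9, 32.7, 33.0 and 21.3 CPM on high fat diet, also without overlap. Nsdhl fell 3.19-fold in females (-1.68 ± 0.35, edgeR adjusted p = 0.00847). In males the change of -1.12 ± 0.34 missed the threshold at an edgeR adjusted p of 0.0508, with a 95% interval from -1.86 to -0.38. Without male normal diet replicate 2 the male value of Nsdhl passed, at an adjusted p of 0.0379.

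Hsd17b7, the reductase that restores the ring hydroxyl group, read 103, 107, 136 and 159 CPM in females on normal diet against 28.4, 56.6, 68.3 and 38.4 CPM on high fat diet. In males it read 81.0, 82.8, 89.6 and 133 CPM against 69.4, 58.4, 60.4 and 55.2 CPM. The groups did not overlap in either sex, and male normal diet replicate 4 stood far above the other 3 libraries of its group. The female fall was 2.63-fold (-1.40 ± 0.24, edgeR adjusted p = 0.00155). The male change of -0.67 ± 0.23 did not pass (edgeR adjusted p = 0.0737, 95% interval -1.16 to -0.18).

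Ebp and Sc5d, the isomerase and the desaturase near the end of the chain, changed little. Ebp, also X-linked, measured 214, 183, 188 and 173 CPM in females on normal diet and 168, 151, 165 and 147 CPM on high fat diet. Its male libraries measured 159, 138, 143 and 131 CPM and 126, 133, 141 and 118 CPM. The female groups of Ebp did not overlap, whereas the male groups did. Its change was -0.26 ± 0.10 in females (edgeR adjusted p = 0.0905) and -0.14 ± 0.10 in males (edgeR adjusted p = 0.393), and on log2(TPM + 1) the female value was -0.02, where the median of all genes lay at 0.15.

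Sc5d measured 562, 517, 603 and 489.7 CPM in females on normal diet and 465, 416, 521 and 415 CPM on high fat diet. In males it measured 411, 369, 362 and 371 CPM on normal diet and 266, 336, 347 and 268 CPM on high fat diet. The female groups overlapped through high fat diet replicate 3, and the male groups did not overlap. The change was -0.26 ± 0.12 in females (edgeR adjusted p = 0.172) and -0.31 ± 0.12 in males (edgeR adjusted p = 0.0953). The 95% interval of the female change ran from -0.51 to -0.01, so a larger fall of Sc5d, of the size seen for Sqle or Cyp51, lay outside it.

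Dhcr7, the reductase at the end of the chain, had the smallest adjusted p of the set in females. It measured 65.5, 48.3, 72.7 and 58.7 CPM in females on normal diet and 24.4, 20.3, 31.3 and 30.6 CPM on high fat diet. In males it measured 45.3, 46.9, 48.0 and 41.2 CPM on normal diet and 30.7, 28.4, 30.2 and 25.2 CPM on high fat diet. The groups of Dhcr7 were apart in both sexes and the male libraries of each group were close together. Dhcr7 fell 2.30-fold in females (-1.20 ± 0.14, edgeR adjusted p = 5.7e-05) and 1.58-fold in males (-0.66 ± 0.14, edgeR adjusted p = 0.00497).

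**Figure D1:**
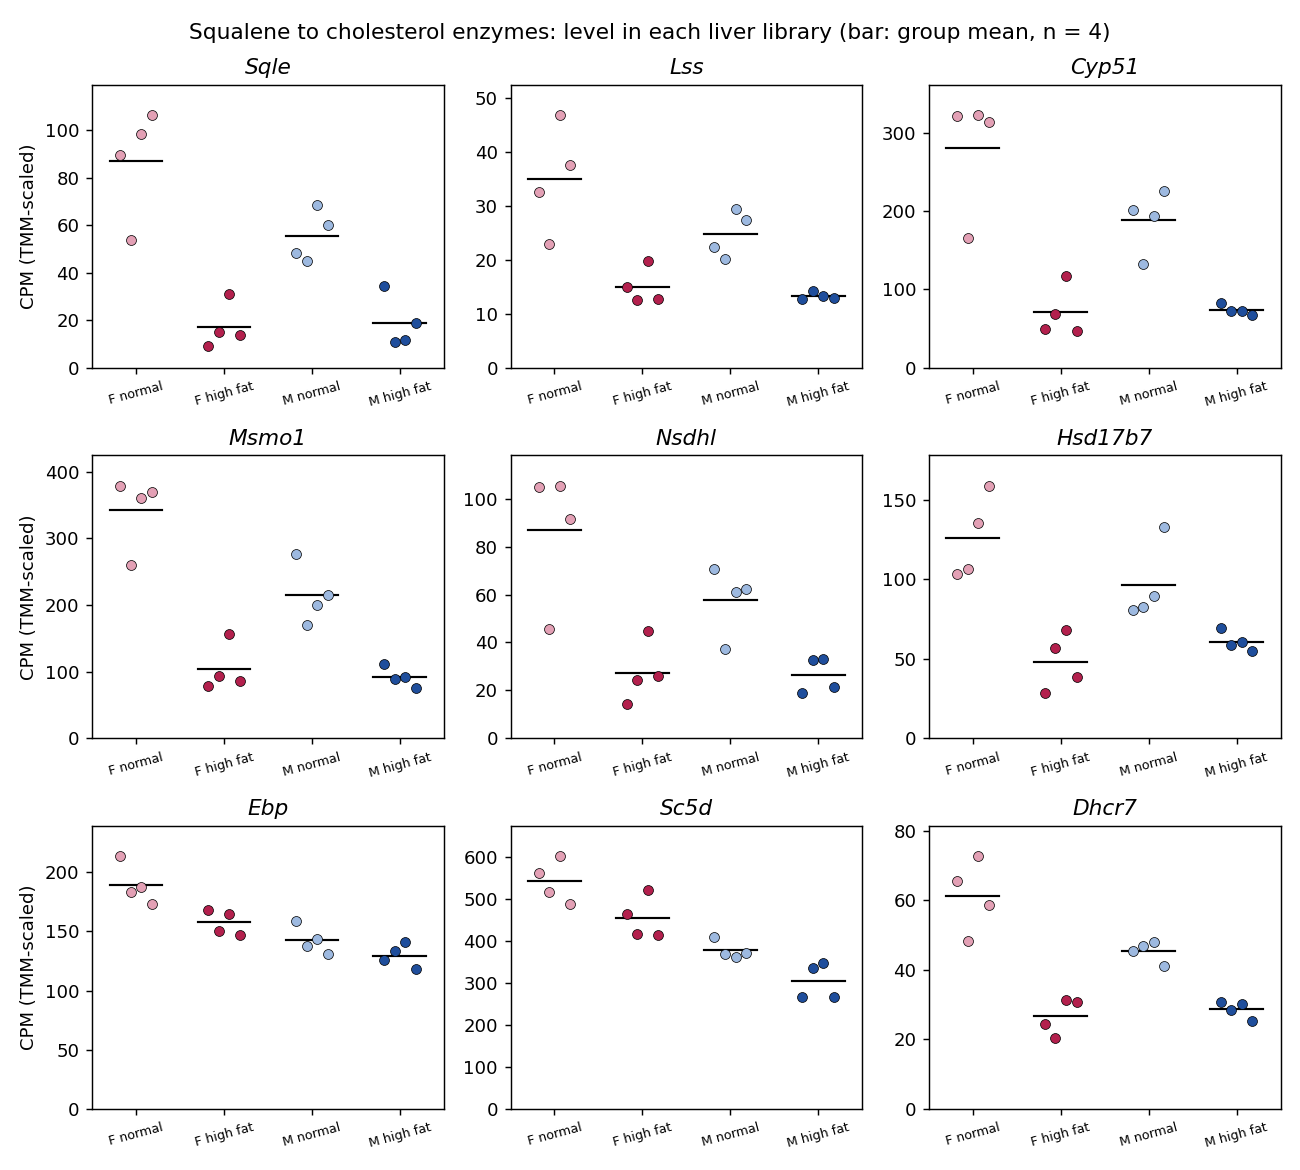
Level of each of the 9 enzymes in CPM (vertical axes from 0) in the 16 liver libraries, by sex and diet, with a point per library and a bar at the mean of 4 libraries. Sqle, Lss, Cyp51, Msmo1, Nsdhl, Hsd17b7 and Dhcr7 stand lower on high fat diet with no overlap in either sex, while the Ebp groups overlap in males and the Sc5d groups overlap in females.

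Counted by overlap alone, 8 of the 9 enzymes had every high fat diet library under every normal diet library in females (all but Sc5d), where 9.55% of all tested genes did so. In males it was 8 of 9 as well (all but Ebp), against 9.13% of tested genes. These counts hold for TMM-scaled CPM. In TPM, described below and not scaled by TMM, the female groups also overlapped for Lss, Nsdhl and Ebp, and the male groups also for Sc5d. The lowest normal diet and highest high fat diet libraries in females were 5.57 and 5.72 TPM for Lss and 26.02 and 30.14 TPM for Nsdhl. At an unadjusted p under 0.05, 9 enzymes were lower in females, where 13.6% of tested genes were, and 8 in males, where 13.2% were. The count of 7 in females was also reached without female normal diet replicate 2 and without female high fat diet replicate 3. With DESeq2 in place of edgeR the count was 8 in females and 8 in males. The male count was 7 with only the 2 groups compared, 6 with DESeq2 size factors, and between 4 and 6 when each library was left out in turn.

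**Figure D2:**
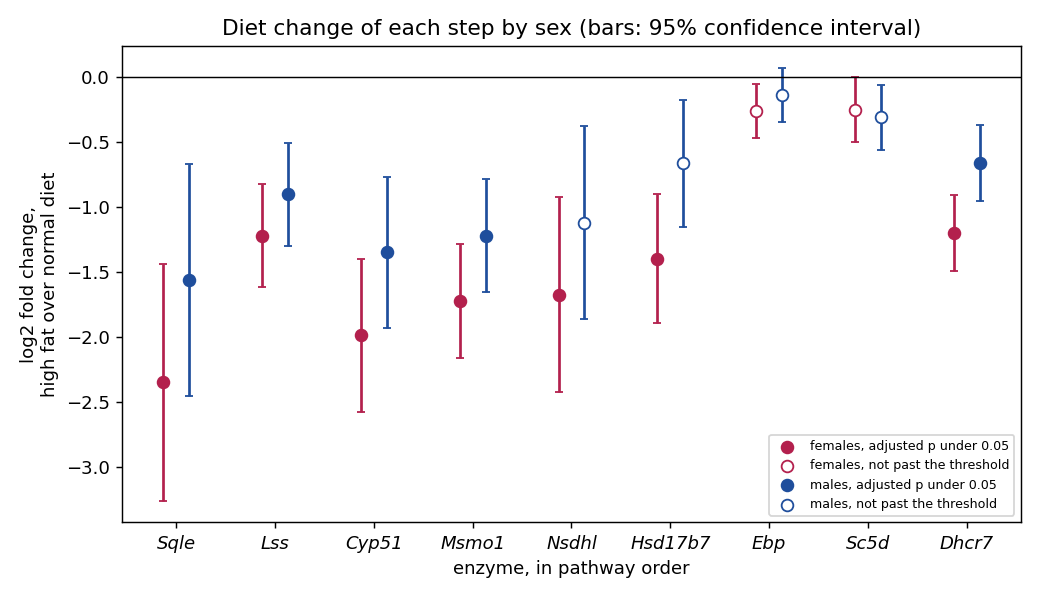
Change of each enzyme with the high fat diet (log2 fold change, vertical axis) in pathway order, for females and males, with the 95% confidence interval as bars. All estimates lie below 0; the lowest is Sqle in females at -2.35, and Ebp and Sc5d lie nearest to 0 in both sexes.

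Levels of some cell type markers moved with the diet. The summed level of 6 hepatocyte markers was 102779 to 116401 CPM in females on normal diet and 80205 to 96826 CPM on high fat diet. In males it was 84593 to 93619 CPM and 55813 to 77606 CPM, with 2 of the 6 genes called lower in each sex. Most of that sum was albumin. The albumin share of all counts was 8.71% on normal and 7.88% on high fat diet in females (exact permutation p = 0.114). In males the share was 6.47% and 4.87% (exact permutation p = 0.0286). In females the sum of 5 Kupffer cell markers, the resident macrophages of the liver, was 223 to 327 CPM on normal diet and 371 to 516 CPM on high fat diet, with 1 of 5 called higher. Of 5 markers of lipid-associated macrophages, 2 were called higher in females, and 3 were called higher and 1 lower in males, while their sums overlapped (59.1 to 76.1 against 59.7 to 96.6 CPM in females, 49.7 to 64.8 against 59.7 to 102 CPM in males). In males the sum of 5 stellate cell markers was 214 to 256 CPM and 268 to 385 CPM (none called, and 1 of 5 higher in females), and that of adipocyte markers 9.60 to 15.2 CPM and 16 to 37.4 CPM, with 1 of 3 tested genes called higher. No endothelial, T and B cell or red blood cell marker was called with diet in either sex, and 1 of 4 tested cholangiocyte markers was called lower in males. Of all tested genes, 5.76% were called lower and 5.74% higher in females, and 5.36% lower and 6.03% higher in males. The part of these shifts in the fall of the enzymes was not tested.

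The female estimate was the more negative for 8 of the 9 enzymes (for Ebp not on the TPM scales), but no enzyme passed the test of the difference between the sexes. In that test, which subtracts the male change from the female change, 0 of 9 were called with edgeR, 0 with DESeq2 and 0 with limma, where 0.677% of all genes were called with edgeR. At an unadjusted p under 0.05 there were 2 of 9, Dhcr7 and Hsd17b7, where 13% of all genes passed. The difference for Dhcr7 was -0.54 (log2, 95% interval -0.95 to -0.13, edgeR adjusted p = 0.251), and for Hsd17b7 it was -0.73 (-1.42 to -0.04, edgeR adjusted p = 0.354). For Sqle the interval ran from -2.02 to 0.45 and for Cyp51 from -1.45 to 0.17, and a female excess as large as the male change itself lay inside both intervals. For Nsdhl, called in females and not in males, the difference was -0.55 (edgeR adjusted p = 0.682), so a difference between the sexes was not shown for it or for Hsd17b7.

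On normal diet the enzymes tended to be higher in females than in males. Of the 9, 4 passed the test (Msmo1, Ebp, Sc5d and Dhcr7), all higher in females, where 7.03% of tested genes were higher in females and 15.7% differed in either direction. The estimates of all 9 were above 0, from 0.39 for Hsd17b7 to 0.67 for Msmo1, with a median of 0.52. Sc5d was higher by 0.52 ± 0.12 (edgeR adjusted p = 0.00688) and Ebp by 0.41 ± 0.10 (edgeR adjusted p = 0.00988). Msmo1 differed by 0.67 ± 0.20 (edgeR adjusted p = 0.0333) and Dhcr7 by 0.43 ± 0.14 (edgeR adjusted p = 0.0389). Ebp, Sc5d and Dhcr7 showed no overlap between the sexes in CPM, against 9.86% of tested genes higher without overlap. In TPM the sexes overlapped for Dhcr7, with the lowest female library at 23.95 and the highest male library at 26.09. For Msmo1 the sexes overlapped, since female replicate 2 at 260.0 CPM lay below male replicate 1 at 277 CPM. Sqle, with 0.65 and an edgeR adjusted p of 0.298, did not pass. The count of 4 fell to 2 without female normal diet replicates 1, 3 or 4 or without male normal diet replicates 2, 3 or 4.

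On high fat diet only Sc5d among the 9 passed, higher in females by 0.58 ± 0.12 (edgeR adjusted p = 0.00297), where 8.84% of tested genes were higher in females and 20.4% differed in either direction. Ebp was next at 0.28 ± 0.10 (edgeR adjusted p = 0.0512), and it passed with DESeq2 (adjusted p = 0.0152). Ebp and Sc5d were the 2 enzymes whose libraries did not overlap between the sexes, against 10.3% of genes. The other 7 had estimates between -0.35 for Hsd17b7 and 0.18 for Lss, and for Sqle, Cyp51 and Dhcr7 the sign depended on the scaling. The hepatocyte marker sum was also higher in females, without overlap, on both diets, although of the 6 single markers 1 was called lower and none higher on normal diet, and 2 lower and 1 higher on high fat diet. On normal diet the stellate sum was 316 to 327 CPM in females and 214 to 256 CPM in males, with 2 of 5 called higher. On high fat diet the Kupffer cell sum was 371 to 516 CPM in females and 175 to 364 CPM in males, with 4 of 5 called higher. Of all tested genes, 7.03% were called higher in females on normal diet and 15.7% in either direction. The part of these markers in the difference was not tested.

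Per unit of transcript length, the 9 enzymes spanned a wide range. In TPM, which divides the counts by transcript length and rescales each library to a common total, Sc5d was highest in every group, at 279.6 ± 42.7, 260.4 ± 19.8, 183 ± 7.54 and 153 ± 27.6 (SD, n = 4) in the female normal, female high fat, male normal and male high fat diet groups. Lss was lowest in every group, at 9.09 ± 3.16, 4.53 ± 0.840, 6.34 ± 1.21 and 3.58 ± 0.153 TPM. On normal diet the order was Sc5d, Msmo1, Ebp, Cyp51, Nsdhl, Sqle, Hsd17b7, Dhcr7 and Lss in both sexes. The middle of that order was not firm, because Sqle was above Hsd17b7 in 3 of 4 female and 2 of 4 male libraries, and Hsd17b7 above Dhcr7 in 2 of 4 female and 1 of 4 male libraries. On high fat diet Msmo1 dropped under Ebp in all 4 libraries of each sex, and Sqle dropped to the place before Lss. Msmo1 went from 221 ± 42.6 to 78.1 ± 24.3 TPM in females and from 137 ± 21.4 to 62.1 ± 9.35 TPM in males. Ebp was at 147 ± 13.5 and 145 ± 6.48 TPM in females and at 110.2 ± 6.80 and 106 ± 6.26 TPM in males. TPM is not scaled by TMM, and in CPM the female mean of Ebp was 189 on normal and 158 on high fat diet.

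**Figure D3:**
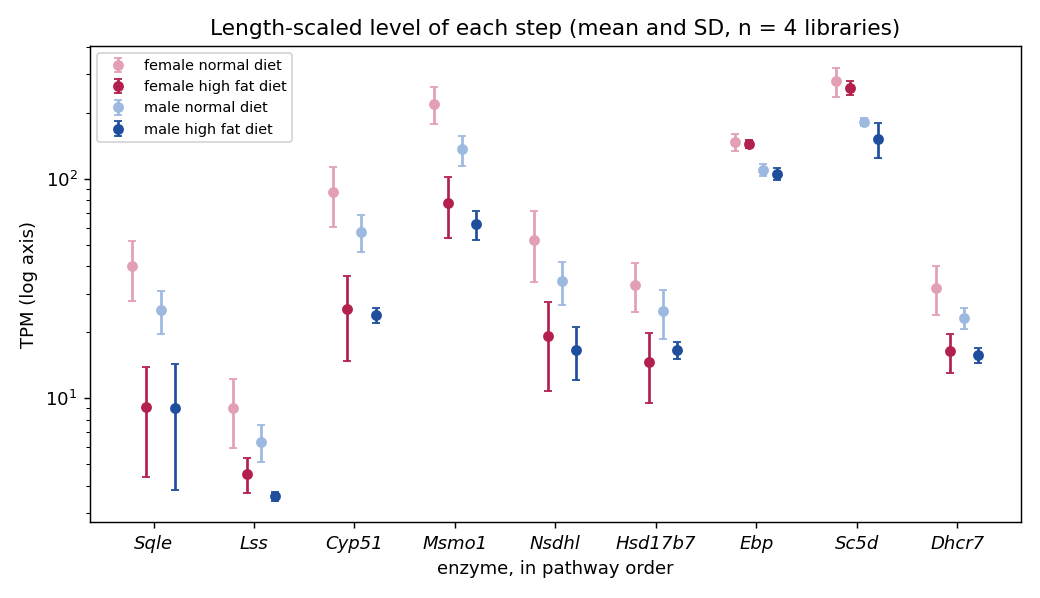
Length-scaled level of each enzyme in TPM (log axis) in pathway order for the 4 groups, as mean and SD of 4 libraries. Sc5d is highest and Lss lowest in each group, and the high fat diet groups run lower at each step, closest to the normal diet groups at Ebp and Sc5d.

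The summed TPM of the 9 enzymes was 901 ± 155 in females on normal diet and 573 ± 67.5 on high fat diet, and 601 ± 33.8 and 406 ± 32.5 in males (SD, n = 4). These sums are not scaled by TMM. On log2(TPM + 1) the median diet change of all genes was 0.15 in females and 0.05 in males. Ebp and Sc5d together made up 47.8% ± 5.43 of the sum in females on normal diet and 71.2% ± 5.94 on high fat diet. In males their share was 48.9% ± 3.77 and 63.5% ± 4.36. The pair was singled out after its values were seen, so these shares are a description and carry no test.

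Within the groups, many of the enzymes also varied together from library to library. Over the 36 pairs of enzymes and the 16 libraries, with each group's mean subtracted from log2 CPM, Pearson's r ran from -0.37 to 0.88 with a median of 0.48. Cyp51 and Msmo1 were the closest pair at 0.88, followed by Cyp51 and Nsdhl at 0.79. Ebp and Sc5d went with each other at 0.73. Over all pairs that hold either of them, that pair included, the median was 0.32. Against the mean of the other 8, r was 0.894 for Cyp51 and 0.870 for Msmo1, and it was lowest for Ebp at 0.243. Sc5d, at 0.474, stood close to Hsd17b7 at 0.462 and Sqle at 0.510. These values share library preparation and depth, and 2 libraries, female high fat diet replicate 3 and female normal diet replicate 2, stood farthest from their group means. The pair values were not set against pairs drawn from all genes, nor computed again without those 2 libraries.

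The genes outside the set that followed it most closely were sought by the same measure, the correlation of within-group deviations with the mean of the 9 scaled enzymes over 16 libraries, among 10640 other genes. Idi1, the isomerase of the mevalonate arm, ranked 1 with r = 0.94, and Fdft1, the squalene synthase just before Sqle, ranked 8. Outside the pathway lists, the 10 closest were Rdh11 (r = 0.90, Spearman's rho 0.80), Fam133b (0.87, 0.87), Tmem97 (0.84, 0.87), Dbr1 (0.83, 0.75), Acer3 (0.82, 0.82), Hsd17b12 (0.77, 0.54), Tceanc2 (0.77, 0.74), Pltp (0.77, 0.72), Zfp974 (0.76, 0.77) and Hps6 (0.76, 0.60). Without the 2 farthest libraries, r was lower for all 10, from 0.78 for Fam133b, 0.76 for Rdh11 and 0.74 for Tmem97 down to 0.55 for Pltp and 0.53 for Hps6. Rdh11, a retinol dehydrogenase, fell in females (-1.22 ± 0.19, edgeR adjusted p = 0.000798) and in males (-0.70 ± 0.19, edgeR adjusted p = 0.0259). Tmem97, the sigma-2 receptor, fell as well (-0.83 ± 0.12, edgeR adjusted p = 0.000404, and -0.54 ± 0.12, edgeR adjusted p = 0.00926). Zfp974 rose with the diet in both sexes (0.76 ± 0.20 and 0.83 ± 0.20, edgeR adjusted p = 0.0211 and 0.0124), so a gene close to the set within groups could move the other way with diet.

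Enzymes and electron donors that work beside the 9 were measured for 11 of 12 listed genes. Where 5.76% of all tested genes fell in females, 6 of these fell and none rose, with a list median of -0.46. Among them were Tm7sf2 (-0.95 ± 0.25, edgeR adjusted p = 0.024) and Lbr (-0.60 ± 0.13, 0.008), which share a reductase step after Cyp51, Erg28 (-0.74 ± 0.14, 0.00275), a scaffold of the demethylating enzymes, Por (-0.85 ± 0.13, 0.000619), which feeds electrons to Cyp51, and Pgrmc1 (-0.46 ± 0.15, 0.0475), a partner of P450 enzymes. In males 3 fell, Tm7sf2 (-1.18 ± 0.25, edgeR adjusted p = 0.0074) and Por (-0.69 ± 0.13, 0.00282) among them, with a median of -0.33, where 5.36% of all tested genes fell. Cyb5a, Cyb5b, Cyb5r3, Ebpl and Marchf6 passed in neither sex.

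Upstream, 9 of the 10 genes of the mevalonate arm fell in females and 6 of 10 in males, and none rose, with medians of -1.07 and -0.78. Of all tested genes, 5.76% fell in females and 5.36% in males. The log2 change of Idi1 was -2.33 ± 0.32 in females and -1.67 ± 0.31 in males (edgeR adjusted p = 0.000364 and 0.00313). Pmvk, the phosphomevalonate kinase, changed by -1.21 ± 0.18 and -0.85 ± 0.18 (edgeR adjusted p = 0.00035 and 0.00532). Sqle, with -2.35 and -1.56, had estimates near those of Idi1, a comparison of values that was not tested.

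Of 11 tested genes for SREBP2 regulation and sterol uptake, 3 fell in females (Srebf2 and Insig1 among them). In males 4 fell (Insig1 and Stard4 among them) and 1 rose (Insig2), and the medians were -0.29 in females and -0.12 in males. Of all tested genes, 5.76% fell in females, and in males 5.36% fell and 6.03% rose. Srebf2, which encodes SREBP2 itself, fell by 0.42 ± 0.13 in females (edgeR adjusted p = 0.0448) and stood at -0.12 ± 0.13 in males (edgeR adjusted p = 0.582). Stard4, a sterol carrier, stood at -0.47 ± 0.18 in females (edgeR adjusted p = 0.0972) and fell by 1.00 ± 0.18 in males (edgeR adjusted p = 0.00207). A difference between the sexes was not shown for Srebf2 or Stard4 (edgeR adjusted p = 0.536 and 0.399). Insig1, which holds SREBP2 in the endoplasmic reticulum, changed by -0.58 ± 0.10 in females and -1.65 ± 0.10 in males, and Insig2 stood at -0.29 ± 0.23 in females and rose by 1.35 ± 0.23 in males. These 2 genes passed the test of the difference between the sexes (Insig1 1.07, edgeR adjusted p = 0.0011, and Insig2 -1.64, edgeR adjusted p = 0.0251), which none of the 9 enzymes did.

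Of the genes of sterol efflux, storage and catabolism, 2 of 12 fell in females (Abcg5 -0.59 ± 0.13 and Cyp27a1 -0.74 ± 0.17, edgeR adjusted p = 0.00682 and 0.00946) and 1 of 12 in males (Soat2 -0.43 ± 0.13, edgeR adjusted p = 0.0362), beside 5.76% and 5.36% of all tested genes, with medians of -0.05 and -0.07. Among 7 tested targets of SREBP1, the factor of fatty acid synthesis, 3 fell in females, where 5.76% of all tested genes fell. They were Acss2 (-1.06 ± 0.22, edgeR adjusted p = 0.00553), Acly (-0.59 ± 0.15, 0.0165) and Me1 (-0.89 ± 0.26, 0.0377). In males 1 fell (Me1 -0.86 ± 0.26, edgeR adjusted p = 0.044), where 5.36% of all tested genes fell. The medians of the 7 targets were -0.68 in females and -0.65 in males.

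**Figure D4:**
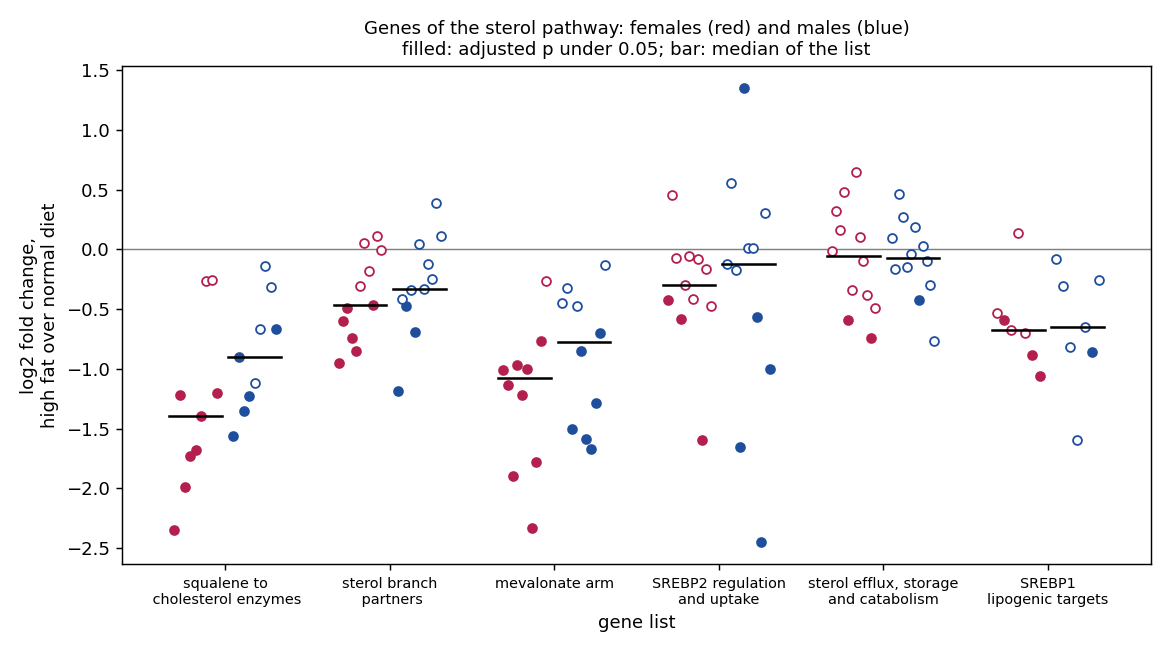
Change with the high fat diet (log2 fold change) of every tested gene of the set of 9 and of 5 lists around it, females in red and males in blue, filled where the edgeR adjusted p is under 0.05, with a bar at the median of the list. The 9 enzymes have medians of -1.40 and -0.90, the mevalonate arm -1.07 and -0.78, and the efflux, storage and catabolism list -0.05 and -0.07.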

How the data were processed

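Whole-liver total RNA was made into polyA libraries with the NEBNext Ultra kit and sequenced on a NovaSeq, per the labels' protocols. The authors deposited RSEM expected counts and TPM per gene, made with STAR and RSEM on GRCm39 per the submitters' processing notes, with versions not given in the sources used here. The expected counts were rounded to integers, filtered with filterByExpr, scaled by TMM and fitted with edgeR 4.0.16 in R 4.3.3 (quasi-likelihood, robust, 1 mean per group over all 16 libraries), with 5 comparisons and Benjamini-Hochberg adjustment over 14781 genes. A standard error is the log2 change over the root of F. TPM was used to compare levels between genes.

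The alternatives were DESeq2 1.42.0 size factors and its Wald test, library totals alone, no filter, limma 3.58.1 on log2(TPM + 1) and log2(TPM + 0.1), a replicate block, the 2 groups alone, each library left out, and male high fat diet replicates 2 and 3 averaged. The model code was tested on simulated data. The enzymes and lists were chosen with earlier results of these data known. Named beyond the 9 enzymes are partner genes, at most the 4 smallest p-values of each other list and the 10 genes outside the lists most like the set. Gene symbols were matched on the Ensembl gene identifier, with RefSeq synonyms used for listed symbols not found that way. Promoters came from RefSeq and exon overlaps from GENCODE M21, both on GRCm38. Some genes that this rule would name are counted in their lists but are not reported here.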

Additional observations from a re-analysis of the deposited data

Results flagged for a closer look

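In 36 checks, of each enzyme in each group of 4 libraries, 3 had a library far from its companions, with a gap to the nearest library, as a share of the group's range, above Dixon's 95% limit of 0.829. Chance alone flags about 1 in 20 groups. Female normal diet replicate 2 was low for Cyp51, with a gap of 0.942 of the range (165 CPM beside 313 to 323 CPM). The same library was low for Msmo1, with a gap of 0.841 (260.0 CPM beside 360.3 to 379 CPM). Male normal diet replicate 4 was high for Hsd17b7, with a gap of 0.834 (133 CPM beside 81.0 to 89.6 CPM).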

How the results depend on the processing

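Each change of the 9 enzymes was computed again under the alternatives, giving 828 values, of which 764 kept their direction and their side of the threshold, 23 lost the call, 19 gained it and 22 changed sign. All 153 recomputed values were below 0 for the diet in females and all 153 in males, and all 153 were above 0 for females against males on normal diet. The count of falling enzymes in females was 8 with DESeq2 (Ebp adjusted p = 0.0435) and 7 with each library left out (7 to 7). In males it was 8 with DESeq2 (Nsdhl 0.00332, Hsd17b7 0.027 and Sc5d 0.0442 as adjusted p) and 4 to 6 with a library left out, and Sqle also lost its call with no filter (adjusted p = 0.0681) and with the mean of male high fat diet replicates 2 and 3 (0.0748). For the difference of the diet change between the sexes the count was 0 to 0, and on normal diet between the sexes 2 to 5, without a library. On high fat diet the count of 1 became 2, with Ebp added, under DESeq2 size factors, library totals, the DESeq2 test, both TPM fits and the averaged pair, and it was 1 to 2 without a library. Libraries with the same replicate number in different groups did not deviate together (correlations -0.21 to 0.10 over 24 pairs), so no pairing by number was seen. The labels do not say what the number marks, and low correlations alone cannot settle it. The replicate block gave 8 falling enzymes in females (Ebp adjusted p = 0.0434), 5 in males, 0 for the difference between the sexes, 5 on normal diet (Lss 0.0305) and 2 on high fat diet (Ebp 0.0211), and with it the sex difference of Nsdhl on high fat diet was -0.0246. For the difference of the diet change, Ebp was 0.0401 on log2(TPM + 1) and 0.0405 on log2(TPM + 0.1), and Sc5d was -0.0016 to 0.14 without a library. For females against males on high fat diet, Cyp51 was 0.0469 and Dhcr7 0.0220 with library totals, and on the TPM scales in the same order Cyp51 was 0.0112 and 0.00901, Dhcr7 0.0361 and 0.0372, and Sqle 0.0392 and 0.0462. There, without a library, Sqle ranged from -0.57 to 0.35, Cyp51 from -0.41 to 0.0873, Msmo1 from -0.0846 to 0.30, Nsdhl from -0.29 to 0.25 and Dhcr7 from -0.18 to 0.0059. The cause was not tested. Over all genes, library totals alone called 2315 genes higher and 372 lower for the diet in females, against 848 and 852, with the median of all genes at 0.19. On log2(TPM + 1) and log2(TPM + 0.1) that split was 2644 and 282, and 2487 and 276, with medians of 0.15 and 0.22. For the diet in males the same 3 alternatives gave 1356 and 472, 899 and 443, and 953 and 440, against 891 and 793. For the difference of the diet change they gave 71 and 49, 59 and 38, and 55 and 31, against 39 and 61, and for the sexes on high fat diet 2318 and 1048, 2957 and 753, and 2808 and 737, against 1306 and 1715. DESeq2 called 328 genes for the difference of the diet change and the averaged pair 58, against 100, and the 2 groups alone called 1958 on high fat diet against 3021. Without a library the count over all genes was 947 to 1647 for the diet in females (1700 with all) and 51 to 176 for the difference of the diet change. Of the 10 genes most like the set, 7 were also among the 10 by Spearman's rho and 2 by r over the libraries without removing group means. The lowest library value of the 9 enzymes was 9.0 CPM, for Sqle.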
